A study of Homo sapiens with 6 samples.

Results

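PNPLA6, QSOX1, CCR10, BIN1, CYB5R3, LCMT1, INAVA and RBBP4 are 8 genes, of 16910 rows in the deposited expression table, that stood far lower in siGYS1 cells than in the other cells of the series. They were picked because of that fall, so their own levels are given below as a description with no test. All 8 passed the filter on low counts that 13235 genes passed. The cells were TOV21G, a human ovarian clear cell carcinoma line with the label WT as genotype in every group. The 3 groups were siGYS1, transfected against the muscle-type glycogen synthase GYS1, sip53, transfected against p53, and NC, read from its name as the control siRNA, with 2 libraries each. The labels give no siRNA sequence, dose or time after transfection. Nothing in the labels says whether the 2 libraries of a group came from separate cultures, so p-values measure only the spread between these libraries, which may be technical.

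Glycogen synthase adds glucose units to the growing glycogen chain, and GYS1 is the form used outside the liver. An siRNA works through its guide strand, which pairs with the complementary transcript and leads to its cleavage. A guide can also lower transcripts that pair with it only in part, most often through the few bases at its 5′ end, called the seed. The 8 genes do not belong to one pathway. They cover lipid hydrolysis (PNPLA6), disulfide formation (QSOX1), electron transfer to cytochrome b5 (CYB5R3), methylation of a phosphatase (LCMT1), a chemokine receptor (CCR10), membrane curvature (BIN1), innate immune signalling (INAVA) and chromatin (RBBP4).

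Sequence was compared first, because the choice of the genes did not use it. The GYS1 transcript GYS1-202 has 3574 bases in the GENCODE 29 annotation and gives 3556 windows of 19 bases, about the length over which a guide pairs. Each window was laid without gaps, on the same strand, against every annotated transcript of the tested genes. At 17 or more matching bases, 9 windows were matched by at least 1 of the 8 genes, and exactly 1 was matched by 2 of them, CCR10 and QSOX1. A match of 17 in some window is common, as 21.0% of all tested genes reached it, against 0.0304% in this single window, which was picked for holding both. That window covers bases 639 to 657 of the transcript, in the coding sequence of exon 3 of 16, at chr19:48987226-48987244 on the minus strand of GRCh38. It is shown with the best aligned site of CCR10 and QSOX1, and with that of PNPLA6, which matched fewer bases. Capitals mark bases identical to GYS1.
GYS1: GCCAACGACGCTGTCCTCT
CCR10: GCCAACGACGCTGTCgcCT
QSOX1: cCCAACGcCGCTGTCCTCT
PNPLA6: GgCAACGACGCTGTCtgCc

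CCR10 matched 17 of the 19 bases, at chr17:42680064-42680082 on the minus strand, which is coding sequence in the transcript CCR10-201 and 5′ UTR in CCR10-203 and CCR10-202. QSOX1 also matched 17, at chr1:180194332-180194350 on the plus strand, in the coding sequence of exon 11 of 12. PNPLA6 matched 15, at chr19:7561510-7561528 on the plus strand, in the coding sequence of the last exon, number 35. In this window 112 tested genes (0.85%) matched 15 or more. PNPLA6 matched better elsewhere, with 16 bases in 13 windows, a best match that 85.7% of tested genes reached. The run CAACGACGCTGTC, of 13 bases, is shared by GYS1, PNPLA6 and CCR10 and was held by 2 tested genes besides GYS1, which are these. CCR10 continued the identity to 17 unbroken bases, AGGCCAACGACGCTGTC, which begin at base 637 of GYS1-202. That run was in the transcripts of 1 tested gene besides GYS1, CCR10 itself, or 0.00759% of them. Unbroken runs of 17 bases or more with any GYS1 transcript were found in 21.6% of tested genes.

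The other 5 genes showed no comparable match there. BIN1 and RBBP4 matched 13 of 19, a level that 39.7% of tested genes reached, and CYB5R3, LCMT1 and INAVA matched 12, which 87.0% reached. Elsewhere in the transcript, BIN1 and INAVA shared 1 window at 16 matches, bases 352 to 370, with 13 genes in all at 16 or more. Over those 13 genes the median log2 fold change with siGYS1 was -0.153. At 15 or more, 57 windows were matched by at least 2 of the 8 genes, so matches of that length are common. The long unbroken runs of INAVA (17 bases), RBBP4 (18) and QSOX1 (16) with other GYS1 transcripts were repeat-type words held by 2110, 1953 and 1716 of the tested genes. LCMT1 shared no run beyond 11 bases, a length that 98.7% of tested genes reached. The median longest run was 15.5 bases in the 8 genes, against 13 in all 13175 tested genes with transcripts. A match is a description and not a site of action, and whether the siGYS1 duplex pairs with any sequence printed here was not tested.

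**Figure D1:**
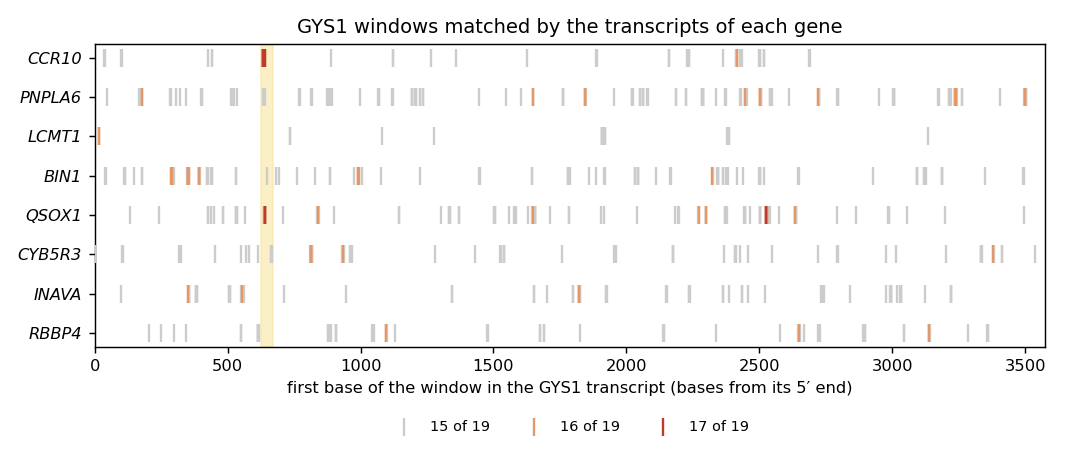
Positions along the GYS1 transcript (x axis, bases from its 5′ end) at which a 19-base window is matched at 15 (grey), 16 (orange) or 17 (red) bases by a transcript of each gene. The shaded strip marks the window at base 639, where CCR10 and QSOX1 both reach 17 and PNPLA6 reaches 15, while the 6 genes other than CCR10 and QSOX1 have no red mark anywhere.

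GYS1 itself was read first as a check of the label. It was at 1.69 and 1.67 FPKM (fragments scaled to transcript length and library depth) in the siGYS1 libraries, 30.38 and 31.39 in the sip53 libraries, and 28.57 and 27.26 in the NC libraries. In the fit this is 6.29% of NC, so the library labels hold for the target. The 8 genes had a median log2 fold change of -1.83 in siGYS1 over NC, against -0.01 for all tested genes. In sip53 over NC their median was 0.16, against -0.03 for all tested genes. The share of tested genes called lower with siGYS1, at an adjusted p below 0.05 in edgeR, was 9.24%, and 1.31% were called at least 2-fold lower. With sip53 26.5% were called lower. Nothing is read from the 8 genes against these shares, since siGYS1 over NC chose them. Log2 fold changes below are edgeR estimates from read counts with a standard error (SE) in a fit of all 6 libraries.

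CCR10, the receptor for the chemokines CCL27 and CCL28, was the deepest of the 8. It stood at 2.48 and 2.79 FPKM with siGYS1, 17.16 and 16.57 with sip53, and 19.06 and 19.23 with NC. The siGYS1 libraries were far below the other 4, and sip53 was slightly below NC in FPKM. From the read counts the log2 fold change was -2.62 (SE 0.15) in siGYS1 over NC, 16.3% of NC, and 0.01 (SE 0.12) in sip53 over NC. CCR10 had few reads, 53.17 and 45.11 in the siGYS1 libraries, 301.09 and 297.1 in the sip53 libraries, and 304.09 and 331.31 in the NC libraries. Its gene body overlaps CNTNAP1 on the other strand and its read counts were not whole in any library, so part of its reads may have been shared out by the authors' counting. CNTNAP1 had a log2 fold change of 0.31 with siGYS1 (edgeR adjusted p = 0.0691).

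PNPLA6, also called neuropathy target esterase, hydrolyses phosphatidylcholine and lysophosphatidylcholine at the endoplasmic reticulum. Its level was 7.29 and 6.20 FPKM with siGYS1, 31.20 and 31.14 with sip53, and 35.60 and 27.68 with NC. Both siGYS1 libraries were below all others, while sip53 lay within the NC pair. The log2 fold change was -2.21 (SE 0.09) in siGYS1 over NC and 0.11 (SE 0.09) in sip53 over NC. MCOLN1 overlaps PNPLA6 on the same strand and was at 0.18 (edgeR adjusted p = 0.328) in siGYS1 over NC.

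LCMT1 methylates the C-terminal leucine of the catalytic subunit of protein phosphatase 2A, a step that steers which regulatory subunits bind. It was at 6.29 and 9.04 FPKM in siGYS1, 35.01 and 33.35 in sip53, and 29.75 and 33.68 in NC. This was the widest spread between siGYS1 libraries among the 8 in proportion to the level, and the groups still did not overlap. The log2 fold change was -2.03 (SE 0.16) in siGYS1 over NC and 0.22 (SE 0.14) in sip53 over NC.

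BIN1, an amphiphysin-family protein that bends and tubulates membranes, was at 7.06 and 8.41 FPKM with siGYS1, 30.52 and 33.26 with sip53, and 28.82 and 30.26 with NC. The sip53 libraries were both above the NC pair, and the siGYS1 libraries were below every other. The log2 fold change was -1.89 (SE 0.11) in siGYS1 over NC and 0.21 (SE 0.10) in sip53 over NC.

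QSOX1, a sulfhydryl oxidase of the Golgi and the secretory pathway, and CYB5R3, the NADH-dependent reductase of cytochrome b5, were among the more abundant of the 8. QSOX1 was at 28.34 and 29.42 FPKM with siGYS1, 111.45 and 127.01 with sip53, and 103.42 and 110.90 with NC. CYB5R3 was at 27.37 and 25.61 FPKM with siGYS1, 108.37 and 116.54 with sip53, and 87.93 and 89.28 with NC. Both genes were therefore highest with sip53 and lowest with siGYS1, without overlap between siGYS1 and NC. QSOX1 had a log2 fold change of -1.77 (SE 0.09) in siGYS1 over NC and 0.24 (SE 0.08) in sip53 over NC. CYB5R3 had -1.58 (SE 0.10) and 0.50 (SE 0.09) in these comparisons, so its distance from sip53, -2.09 (SE 0.10), was wider than that from NC. The CYB5R3 read counts were not whole, as with CCR10.

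INAVA, an adaptor of NOD2 signalling and of epithelial junctions, was at 13.39 and 12.24 FPKM with siGYS1, 25.46 and 26.83 with sip53, and 37.12 and 34.80 with NC. RBBP4, a histone-binding subunit of several chromatin complexes, was at 52.91 and 47.11 FPKM with siGYS1, 110.08 and 115.05 with sip53, and 128.71 and 125.90 with NC. In these 2 genes, as in CCR10 by FPKM, both sip53 libraries lay between the other groups. INAVA had a log2 fold change of -1.44 (SE 0.09) in siGYS1 over NC and -0.38 (SE 0.09) in sip53 over NC. RBBP4 had -1.33 (SE 0.09) and -0.22 (SE 0.08), and the 3 groups of either gene did not overlap. RBBP4 overlaps SYNC on the other strand, and its read count was whole in 1 of the 6 libraries.

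**Figure D2:**
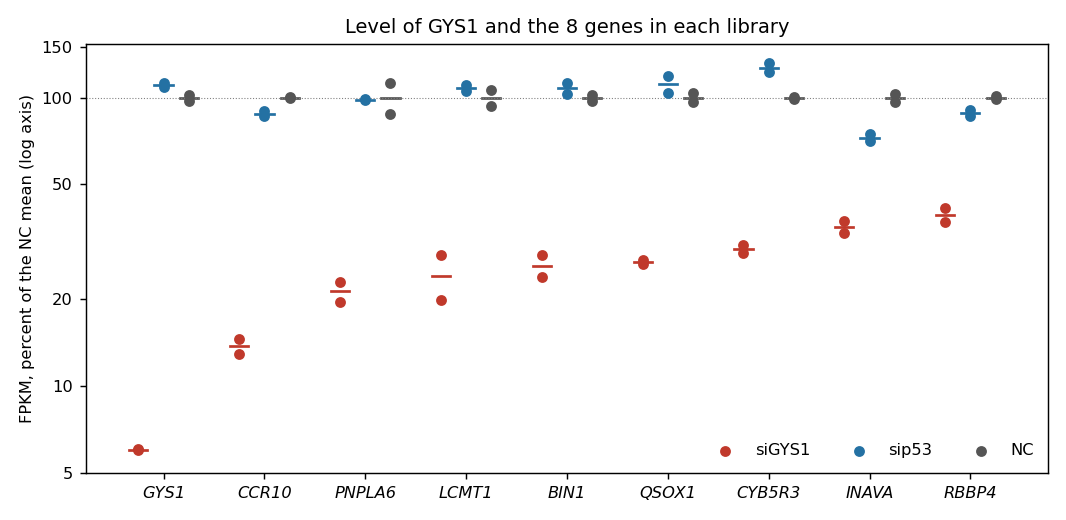
FPKM of GYS1 and the 8 genes in each library as a percent of the NC mean (log axis), with siGYS1 left, sip53 in the middle and NC right. Points are libraries and bars are means of 2, and every siGYS1 point lies below every sip53 and NC point of its gene.

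The 8 genes were not the only ones with this order of levels. By fold alone, 85 tested genes (0.642%) were at least 2-fold lower in siGYS1 than in both other groups. With a mean of at least 1 FPKM the count was 46 of 11811 genes, of which 37 were outside the 8 and GYS1. Ranked by the weaker of the 2 falls among those 11811 genes, CCR10, PNPLA6, LCMT1, BIN1, QSOX1 and CYB5R3 took ranks 3 to 8 after GYS1 at rank 2. RBBP4 was at rank 33 and INAVA at rank 41. Rank 1 went to the histone gene H4C12, listed at 0 FPKM in both siGYS1 libraries, at 0 and 6.22 in sip53 and at 6.27 and 0 in NC, so its groups overlapped.

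The next genes on that ranking were the keratin KRT19, TMED7 of vesicle traffic, SNRPG of the spliceosome, the SNARE-associated SNAPIN and LSM6 of RNA decay and splicing. KRT19 was at 0.38 and 0.62 FPKM with siGYS1, 1.52 and 1.89 with sip53, and 1.47 and 1.31 with NC. TMED7 was at 19.01 and 15.96 FPKM with siGYS1, 60.48 and 56.38 with sip53, and 52.47 and 44.74 with NC. TMED7 thus had the order of CYB5R3, with sip53 above NC. SNRPG (76.85 and 73.84 FPKM with siGYS1, 179.58 and 214.63 with sip53, 267.10 and 316.17 with NC) had the order of INAVA and RBBP4. Their log2 fold changes in siGYS1 over NC were -1.52 for KRT19, -1.42 for TMED7, -1.84 for SNRPG, -1.53 for SNAPIN and -1.88 for LSM6. They were picked by the same values as the 8 and are given with no test.

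By the distance over the 6 libraries from the median profile of the 8 genes on the log2 CPM scale, BIN1 (0.14) and QSOX1 (0.17) were the most typical and CCR10 (1.12) the least. Outside the 8, C6orf118 (0.54), SNAPIN (0.60), DDIT4L (0.75), FAM117A (0.76) and TMED7 (0.76) came nearest. C6orf118 rested on 4 and 3 reads with siGYS1, 17 and 17 with sip53, and 20 and 20 with NC.

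**Figure D3:**
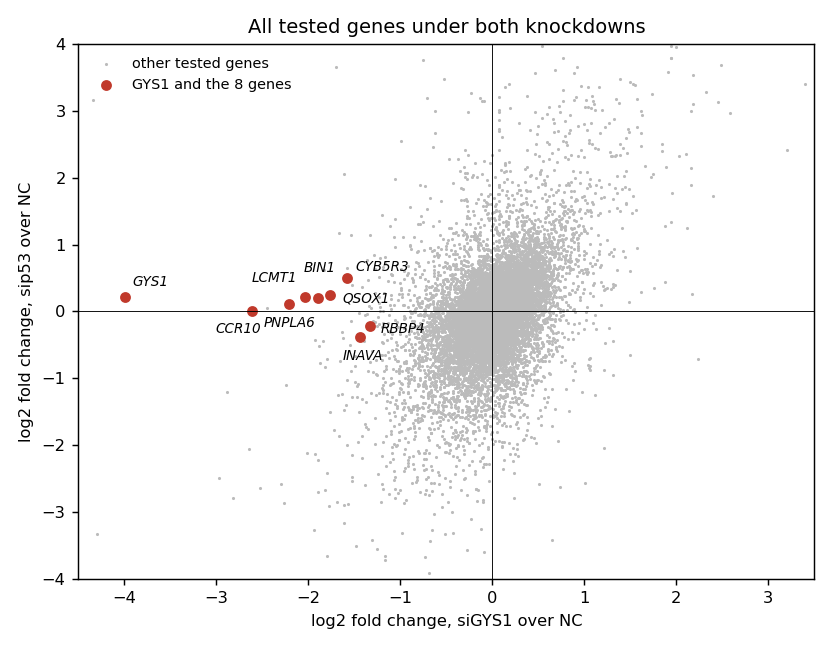
Log2 fold change in siGYS1 over NC (x axis) and in sip53 over NC (y axis) for the tested genes, with GYS1 and the 8 genes in red and 56 genes beyond the axes not drawn. Both axes share the NC libraries. The 8 genes lie between -2.62 and -1.33 on the x axis and between -0.38 and 0.50 on the y axis.

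The window at base 639 was then read across all tested genes. It was chosen after the match of CCR10 and QSOX1 had been seen, so the values are a description. Besides GYS1, 4 tested genes had 17 matches, CCR10, QSOX1 and the near-identical melanoma antigen genes MAGED4 and MAGED4B. The sites of both MAGE genes span a splice junction, and their alignment was as follows, with capitals for bases identical to GYS1.
MAGED4: GCCAgCGAgGCTGTCCTCT
MAGED4B: GCCAgCGAgGCTGTCCTCT

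MAGED4 had a log2 fold change of -0.59 in siGYS1 over NC and -0.40 in sip53 over NC, and MAGED4B had -0.31 in both, so a match of 17 bases did not always go with a deep fall. Reads of these paralogs may have been split between them. With 16 matches, 10 genes ranged between -0.797 and 0.794 in siGYS1 over NC, with a median of -0.039. With 15 matches, 98 genes had a median of -0.001, and 2 of them were at or below -1, PNPLA6 and RASL11B. Falls of that size were also found at lower matches, in 112 of 6226 genes with 12 matches and 91 of 4250 with 13. RASL11B was at -1.01 with siGYS1 and -1.04 with sip53. PNPLA6 was picked for being low with siGYS1 and not with sip53, so nothing is read from its contrast with RASL11B. The mismatches of QSOX1 and of the MAGE genes lie in the 5′ part of the site, and those of CCR10 and PNPLA6 include the 3′ part, as the capitals above show.

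**Figure D4:**
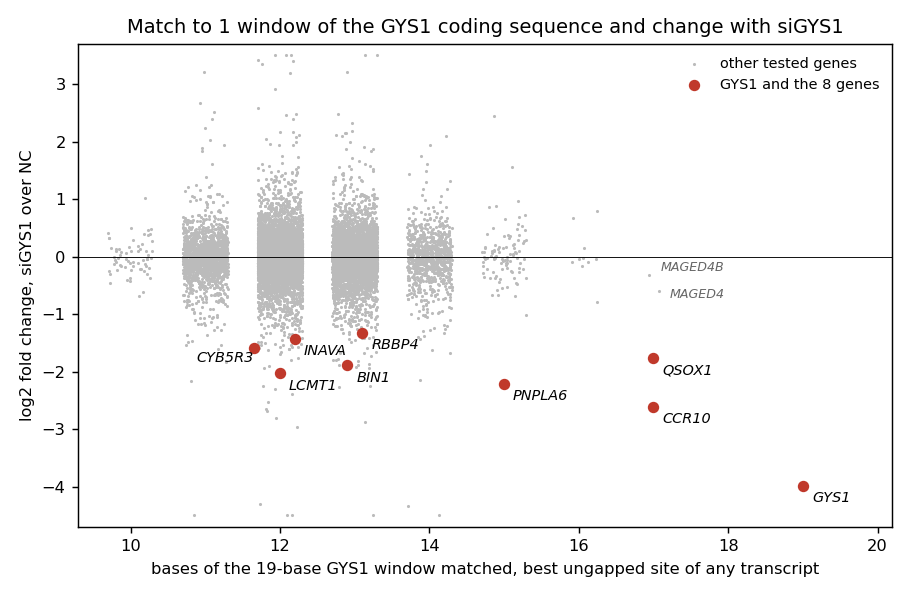
Number of the 19 bases of the GYS1 window matched by the best ungapped site of a gene's transcripts (x axis, points spread sideways within a count) and log2 fold change in siGYS1 over NC (y axis; values below -4.5 or above 3.5 are drawn at those limits). GYS1 at 19, CCR10 and QSOX1 at 17 and PNPLA6 at 15 lie low on the right, MAGED4 and MAGED4B at 17 lie at -0.59 and -0.31, and the other 5 genes lie among genes with 12 or 13 matches.

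The last 7 bases of the window, GTCCTCT, lie at the end where the seed of a guide to this window would pair. This word had already been tied to lower levels with siGYS1 in earlier work on these libraries, so it is no independent support. Of the 8 genes, BIN1 held it in a 3′ UTR in 2 copies, QSOX1 in 1 and RBBP4 in 1. CCR10, PNPLA6, CYB5R3, LCMT1 and INAVA had no copy in an annotated 3′ UTR. Among 13005 tested genes with an annotated UTR, 1794 (13.8%) held the word in a 3′ UTR on the transcript strand. The longest 3′ UTR has 502 bases in BIN1, 6996 in QSOX1 and 6509 in RBBP4. Long UTRs hold the word more often. With a longest 3′ UTR of 2500 bases or more, 1003 genes held it and 2636 did not, against 244 and 4960 under 1000 bases. Of all 1794 holders, 17.6% were called lower with siGYS1, against 8.01% of the genes without the word. With sip53 the shares called lower were 26.0% of holders and 26.8% of the others.

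The median log2 fold change with siGYS1 was -0.059 in holders and -0.002 in the others. GYS1-202 has 2908 words of 7 bases that at least 100 genes hold in a 3′ UTR. Among these, GTCCTCT had the widest difference in the share called lower with siGYS1, 9.60 percentage points, ahead of CGCGGAC with 8.85. The same libraries had already tied GTCCTCT to lower levels, so its rank is only a description. For TGTCCTC, which begins 1 base earlier in the window, 12.3% of holders and 8.69% of the others were called lower with siGYS1. Holders have longer UTRs, with a median of 2786 bases for the longest 3′ UTR of holders and 1188 for that of the other genes. Within UTRs under 1000 bases the shares called lower with siGYS1 were 29.9% of holders and 10.4% of the others. From 1000 up to 2500 bases they were 25.2% and 6.72%, and from 2500 bases upwards 10.5% and 5.35%. Without NC replicate 2 the shares over all lengths were 10.2% and 2.69%. The part of this word in the levels of BIN1, QSOX1 and RBBP4 was not tested.

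The genes beside the 8 on their chromosomes were read for changes that cover more than the gene. Of 21 tested neighbours of the 8 genes and GYS1, 2 were called lower and 0 higher with siGYS1, beside 19.7% of all tested genes called in either direction, and their median log2 fold change was 0.14. KIAA1522, to the right of RBBP4, was at -0.63 (SE 0.10, edgeR adjusted p = 0.0036). TSN, the nearest tested gene on the left of BIN1 but 5280174 bases away, was at -0.41 (SE 0.08, edgeR adjusted p = 0.00943). With sip53 TSN was at -0.65 (edgeR adjusted p = 0.000197) and KIAA1522 at 0.42 (edgeR adjusted p = 0.00711). RUVBL2, whose gene begins 138 bases from GYS1, was at -0.28 (edgeR adjusted p = 0.0994), and FTL on the other side of GYS1 was at 0.43 (edgeR adjusted p = 0.052). SYNC, which overlaps RBBP4, was at 0.18 (edgeR adjusted p = 0.417). Without siGYS1 replicate 2 the count called among neighbours was 7, in a fit that called 31.6% of all genes.

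Close relatives were read for RBBP4, QSOX1, CYB5R3, BIN1, LCMT1, PNPLA6 and CCR10, and none that was tested had a log2 fold change below -0.58 in siGYS1 over NC. RBBP7, the twin of RBBP4 in most of its complexes, was at 137.91 and 149.20 FPKM with siGYS1, 137.14 and 138.74 with sip53, and 157.06 and 165.03 with NC, a log2 fold change of -0.10 (edgeR adjusted p = 0.46). QSOX2 was at 0.29 (edgeR adjusted p = 0.0632), CYB5R1 at -0.10 (edgeR adjusted p = 0.506), CYB5R2 at -0.58 (edgeR adjusted p = 0.326), BIN3 at -0.36 (edgeR adjusted p = 0.0866) and LCMT2 at -0.13 (edgeR adjusted p = 0.438). PNPLA4 fell by 0.39 on the log2 scale (edgeR adjusted p = 0.0309), and PNPLA2 was at -0.16 (edgeR adjusted p = 0.259). PNPLA7, the nearest relative of PNPLA6, did not pass the filter on low counts, at 0.09 and 0.09 FPKM with siGYS1, 0.28 and 0.09 with sip53, and 0.18 and 0.19 with NC. The receptors CCR4, CCR6 and CCR7 did not exceed 0.22 FPKM in any library.

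Partners and relatives of the 8 genes were taken as 8 lists with 194 tested genes in all. With siGYS1, 39 of them (20.1%) were called, 19 lower and 20 higher, close to the 19.7% of all tested genes (9.24% lower and 10.4% higher). Their median log2 fold change was 0.03, and 2 were at least 2-fold lower. With sip53, 107 of the 194 (55.2%) were called, 53 lower and 54 higher, beside 49.9% of all tested genes (26.5% lower and 23.4% higher). In a fit of siGYS1 and NC alone 20 of the 194 (10.3%) were called, beside 12.1% of all genes in that fit. Without NC replicate 2 the count was 11 (5.67%), beside 6.88% of all genes.

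Both of the 2-fold falls were on the list of chromatin complexes around RBBP4. LIN52, a subunit of the DREAM complex that represses cell cycle genes, was at 1.92 and 1.63 FPKM with siGYS1, 2.35 and 2.07 with sip53, and 5.68 and 4.98 with NC. ASF1B, a histone chaperone that hands histones to CAF-1, was at 22.62 and 24.50 FPKM with siGYS1, 30.08 and 39.97 with sip53, and 58.16 and 56.05 with NC. LIN52 fell by 1.47 (SE 0.15, edgeR adjusted p = 0.000369) and ASF1B by 1.31 (SE 0.13, edgeR adjusted p = 0.000213) on the log2 scale with siGYS1. With sip53 LIN52 fell by 1.11 (edgeR adjusted p = 0.000233) and ASF1B fell by 0.59 (edgeR adjusted p = 0.00281). RBBP4 stood at -1.33 with siGYS1 and -0.22 with sip53. MBD3 of the NuRD complex fell by 0.59 with siGYS1 (edgeR adjusted p = 0.00666) and was at -0.28 with sip53 (edgeR adjusted p = 0.0562). Of the 36 tested genes of that list, 3 were called lower and 3 higher with siGYS1 (16.7%, beside 19.7% of all tested genes). With sip53, 16 were called lower and 3 higher. That is 52.8%, beside 49.9% of all tested genes (26.5% lower and 23.4% higher).

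Of 24 tested genes around protein phosphatase 2A, the target of LCMT1, 3 were called lower and 2 higher with siGYS1. That is 20.8%, beside 19.7% of all tested genes. The scaffold subunit PPP2R1B rose by 0.79 (SE 0.09, edgeR adjusted p = 0.000587) and the regulatory subunit PPP2R2C by 0.73 (SE 0.10, edgeR adjusted p = 0.00112), and the regulatory subunit PPP2R3A fell by 0.60 (SE 0.13, edgeR adjusted p = 0.0127). PPP2R1B and PPP2R2C also rose with sip53, by 1.27 (edgeR adjusted p = 5.64e-06) and 1.37 (edgeR adjusted p = 4.24e-06). PPP2R3A also fell with sip53, by 0.49 (edgeR adjusted p = 0.0115). LCMT1 was not low with sip53, and its part in these changes was not tested.

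Of 24 tested genes of disulfide formation, the pathway of QSOX1, 5 were called lower and 1 higher with siGYS1. Among all tested genes, 9.24% were called lower and 10.4% higher, or 19.7% in either direction. The part of QSOX1 in the calls on this list was not tested. TXNDC5, a protein disulfide isomerase of the endoplasmic reticulum, was at 70.12 and 74.21 FPKM with siGYS1, 65.21 and 68.59 with sip53, and 137.20 and 139.49 with NC. It fell by 0.88 (SE 0.08, edgeR adjusted p = 0.000191) with siGYS1 and by 0.95 (SE 0.08, edgeR adjusted p = 1.65e-05) with sip53. TMX4 (fell by 0.79, edgeR adjusted p = 0.000848) and GPX8 (fell by 0.48, edgeR adjusted p = 0.00531) were lower with siGYS1 as well. With sip53 TMX4 fell by 0.82 (edgeR adjusted p = 0.000113) and GPX8 fell by 0.26 (edgeR adjusted p = 0.0277).

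SH3GL1, an endophilin with a BAR domain like BIN1, was 1 of 2 genes called lower among 30 on its list, with 2 called higher. The share called on that list was 13.3%, beside 19.7% of all tested genes. SH3GL1 was at 18.97 and 24.06 FPKM with siGYS1, 44.36 and 49.20 with sip53, and 41.57 and 42.92 with NC. SH3GL1 fell by 0.92 with siGYS1 (SE 0.12, edgeR adjusted p = 0.00097) and was at 0.26 with sip53 (edgeR adjusted p = 0.0784), an order of levels like that of BIN1. The difference of siGYS1 and sip53 was -1.18 (SE 0.12, edgeR adjusted p = 4.47e-05), a comparison in which 43.4% of all tested genes were called. FCHO1 fell by 0.41 (edgeR adjusted p = 0.0319) and the clathrin adaptor subunit AP2B1 rose by 0.36 (edgeR adjusted p = 0.021) with siGYS1. With sip53 FCHO1 fell by 0.37 (edgeR adjusted p = 0.0233) and AP2B1 rose by 0.28 (edgeR adjusted p = 0.0274).

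Of 31 tested genes around NOD2 and the cytohesins, with which INAVA works, 2 were called lower and 6 higher with siGYS1. That is 25.8%, beside 19.7% of all tested genes. IRAK1, a kinase of interleukin-1 and Toll-like receptor signalling, was at 22.60 and 25.43 FPKM with siGYS1, 62.72 and 67.16 with sip53, and 42.54 and 42.08 with NC. It fell by 0.80 with siGYS1 (SE 0.10, edgeR adjusted p = 0.00073) and rose by 0.72 with sip53 (SE 0.09, edgeR adjusted p = 0.000201), and the difference of both was -1.53 (SE 0.10, edgeR adjusted p = 3.73e-06). BIRC3 rose by 0.80 (edgeR adjusted p = 0.00272) and BIRC2 by 0.49 (edgeR adjusted p = 0.00567) with siGYS1, and both ubiquitin ligases of RIPK2 also rose with sip53, by 0.57 (edgeR adjusted p = 0.00399) and 0.72 (edgeR adjusted p = 0.00016).

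Of 24 tested lipid hydrolases and lysophospholipid enzymes, relatives of PNPLA6, 3 were called lower and 2 higher with siGYS1. That is 20.8%, beside 19.7% of all tested genes. The acyltransferases LPCAT4 and LPCAT3, which use up lysophosphatidylcholine, fell by 0.47 (edgeR adjusted p = 0.0188) and 0.40 (edgeR adjusted p = 0.0138), and choline kinase CHKA rose by 0.35 (edgeR adjusted p = 0.025). With sip53 LPCAT3 fell by 0.35 (edgeR adjusted p = 0.00871), CHKA rose by 0.97 (edgeR adjusted p = 2.57e-05) and LPCAT4 was at 0.07 (edgeR adjusted p = 0.627). Of 20 tested genes around cytochrome b5, 1 was called lower and 3 higher with siGYS1, close to the 19.7% of all tested genes. The reductase CYB5R4 rose by 0.53 (edgeR adjusted p = 0.00498) and the fatty acid hydroxylase FA2H by 0.51 (edgeR adjusted p = 0.0114), while the desaturase FADS2 fell by 0.42 (edgeR adjusted p = 0.00862). With sip53 CYB5R4 rose by 0.42 (edgeR adjusted p = 0.00487) and FA2H by 0.88 (edgeR adjusted p = 0.000135), and FADS2 fell by 0.83 (edgeR adjusted p = 4.49e-05). Of 5 tested chemokine receptors and ligands, 0 were called lower and 1 higher with siGYS1, beside 19.7% of all tested genes. The gene called was CCL28, a ligand of CCR10. It rose by 0.47 with siGYS1 (SE 0.11, edgeR adjusted p = 0.015). With sip53 CCL28 rose by 0.49 (SE 0.11, edgeR adjusted p = 0.00392).

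**Figure D5:**
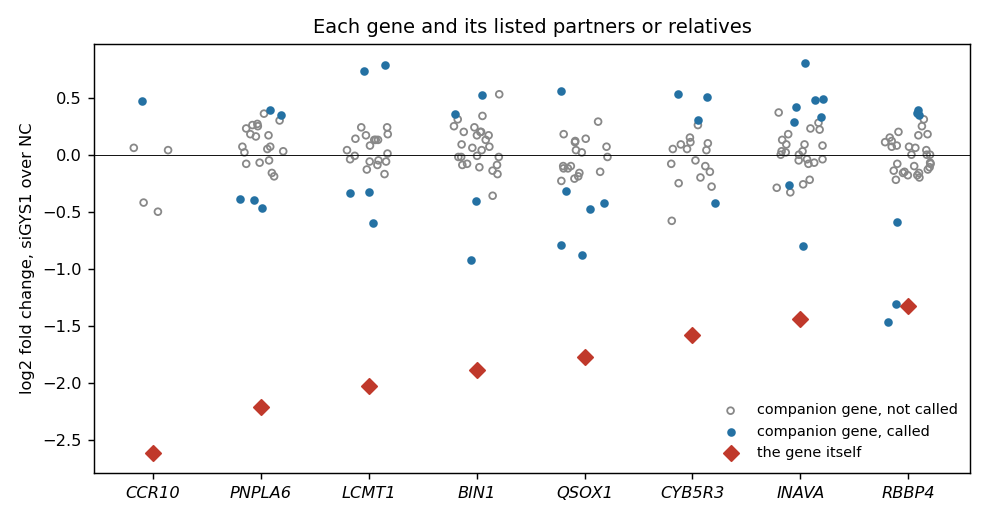
Log2 fold change in siGYS1 over NC (y axis) of each of the 8 genes (red diamonds) and of its listed partners or relatives (circles, filled where the edgeR adjusted p was below 0.05). Apart from LIN52 and ASF1B beside RBBP4, the circles lie above -1, and each diamond except that of RBBP4 lies below all circles of its column.

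Marker genes of the line and of other cells were read beside these levels. Of 12 markers of clear cell carcinoma and epithelium, 11 had a mean of 1 FPKM or more over the 6 libraries, among them KRT19, which was below 1 FPKM in both siGYS1 libraries, and NAPSA did not. Over the list the sum was 635 to 696 FPKM with siGYS1, 668 to 690 with sip53 and 825 to 847 with NC. Of 8 leukocyte markers read, CD68 and CORO1A had a mean of 1 FPKM or more, and the sum was 11.4 to 11.8 FPKM with siGYS1, 13.2 to 14.1 with sip53 and 15.7 to 15.9 with NC. The leukocyte genes PTPRC, CD3D, CD3E, CD2 and MS4A1 were looked for and had no entry in the deposited data. Of 6 fibroblast markers, DCN, COL1A1 and COL1A2 had a mean of 1 FPKM or more, and the sum was 145 to 155 FPKM with siGYS1, 92.3 to 93.0 with sip53 and 177 to 178 with NC. Every library is labelled as the same cell line, so these sums are read as levels within that line. These sums were lower with siGYS1 than with NC, and their part in the levels of the 8 genes was not tested.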

How the data were processed

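The authors deposited 1 table that holds, per the file headers, FPKM, TPM, read counts and normalized read counts for every library. The read counts are expected counts of the authors, since 16.8% to 18.1% of each library's values have a fraction. FPKM is the authors' level per transcript length, per the file headers. The submitters' processing notes list several aligners and counters without roles and name the build mm10, although 16830 of 16910 identifiers are in the human GENCODE 29 annotation. Which tool made the table, and whether it used strand, is stated in none of the sources used. The table's 24 other value columns were not used, and the transcript targeted by sip53 is not reported here.

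Expected counts were rounded. Library totals were 17425000 to 18097337, and precision is set mainly by 2 libraries a group, with 3 residual degrees of freedom. The fit used edgeR 4.0.16 under R 4.3.3, with filterByExpr (minimum count 10, 3675 genes removed), TMM, glmQLFit and glmQLFTest, all 6 libraries, group as the sole term. Genes were called at a Benjamini-Hochberg adjusted p below 0.05 over 13235 genes, and the adjusted p-values printed are these edgeR values. The SE was taken as the size of the log2 fold change over the root of its F statistic. The procedure and the sequence scan were tested on simulated data. Alternatives were DESeq2 1.42.0, limma 3.58.1 on log2(FPKM + 1) and log2(FPKM + 0.1), other filters and scalings, a replicate block, and leaving out each library.

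Sequences are GENCODE 29 transcripts on GRCh38. Each of the 19-base windows of GYS1-202 was compared without gaps with every position of every transcript (Python 3.11.15, numba 0.67.0).

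The members and lists were chosen with earlier results of these data known. Named genes are the 8 and GYS1, their neighbours, up to 3 called genes per list with the smallest adjusted p, the next 6 genes by the weaker of both falls at a mean of at least 1 FPKM, the 5 nearest in profile, and relatives of the 8. MAGED4, MAGED4B and RASL11B were chosen after their values were seen.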

Additional observations from a re-analysis of the deposited data

How the results depend on the processing

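For the 8 genes and GYS1, 135 log2 fold changes of siGYS1 over NC were computed over 15 alternatives. Each move was set against the standard deviation of the gene's log2 CPM over the 2 siGYS1 libraries alone. Of these, 117 moved by less than that, 18 by more, and 0 changed direction. For GYS1 a move from -3.99 to -3.98 with DESeq2 size factors already counted as more. LCMT1 ranged between -2.34 and -1.77 and GYS1 between -4.05 and -3.43. The median of the 8 with sip53 was 0.07 with library totals alone and 0.05 on either FPKM scale. The count of genes at least 2-fold lower in siGYS1 than in both other groups, 85, was 450 with no filter, 43 with a minimum count of 50 and 32 on log2(FPKM + 1). A fit of siGYS1 and NC alone called 1577 genes and 20 companion genes. The median longest run shared with GYS1 was 13 with 1 transcript a gene. The ratio of the shares called lower, with over without GTCCTCT, was 2.20 in the fit of all libraries. Among alternatives that left out no single library, it ranged between 1.72 with the replicate block and 2.90 in a fit of siGYS1 and NC alone. Leaving out single libraries gave a wider range. The ratio and its alternatives were added after seeing the data.

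Leaving out each library in turn, the genes called ranged between 926 (without NC replicate 2) and 4260 (without siGYS1 replicate 2) for siGYS1 over NC, between 4271 and 7621 for sip53 over NC, and between 3416 and 6337 for siGYS1 over sip53. Companion genes called ranged between 11 and 58 with siGYS1 and between 63 and 121 with sip53, and neighbours between 2 and 7. The count of genes lower than both groups ranged between 89 and 174. The medians of the 8 ranged between -1.91 and -1.74, between 0.11 and 0.18, and between -2.22 and -1.98. The cause of these shifts was not tested. With 1 library left in a group, the fit assumes that it varies like the others.

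Whether replicate numbers pair the libraries is not given in the labels and cannot be settled with 2 libraries a group. The correlations of same-numbered deviations were 0.283 (NC and siGYS1), -0.0161 (NC and sip53) and 0.128 (siGYS1 and sip53). With the replicate block, 4662 genes, 64 companion genes and 6 neighbours were called in siGYS1 over NC, 7890 genes in sip53 over NC and 7202 in siGYS1 over sip53.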
